A study of Mus musculus with 16 samples.

Results

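The coagulation, fibrinolysis and kinin system was followed in mouse liver through 35 genes, namely the fibrinogen chains and Fgl1, the clotting factors, their cofactors and carriers, the anticoagulants, the plasminogen system with related plasma proteases, and the contact and kinin genes. They were picked by gene symbol, with earlier results of these data known. All 35 symbols were found, each in 1 row of the 27446 entries of the table, and all 35 had enough counts to be tested. RNA sequencing was done on livers of wild-type C57BL/6 mice that had 7 days of acclimation. In the emodin group (8 livers), emodin, an anthraquinone of rhubarb and other medicinal plants, was given into the stomach at 400 mg/kg over 3 weeks, suspended in 0.5% CMC-Na (sodium carboxymethyl cellulose). In the vehicle group (8 livers), the mice received the 0.5% CMC-Na carrier without emodin. Whether every library stands for a separate animal is not in the labels, so p-values measure the spread between these libraries, which are called livers below.

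Hepatocytes make most clotting factors and many of their inhibitors and release them into plasma, the proteases as inactive precursors. Tissue factor outside the vessel, or the contact proteins factor XII, plasma prekallikrein and kininogen, start a cascade of serine proteases that ends in thrombin, which turns fibrinogen into fibrin. Antithrombin, protein C and tissue factor pathway inhibitor restrain the cascade, plasmin dissolves fibrin, and plasma kallikrein frees bradykinin from kininogen.

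The emodin livers held 28.3 to 48.2 M estimated counts (M, mega), against 28.7 to 38.6 M in the vehicle livers (exact two-sided permutation test over 12870 assignments, p = 0.035). Levels are given in CPM (the count of a gene relative to the TMM-scaled library size, per mega of counts), and log2 fold changes (emodin over vehicle) come with a standard error (SE) and a p adjusted over all 14308 entries tested, from edgeR's quasi-likelihood test. A gene was called changed at an adjusted p under 0.05. The summed level of 8 hepatocyte markers was 58583 to 108409 CPM (median 87424) in emodin livers and 99825 to 129731 CPM (median 111831) in vehicle livers. Most of that sum was albumin (Alb), with means of 59544 CPM in emodin livers and 84492 CPM in vehicle livers. Alb was called lower (log2 fold change −0.50 ± 0.15 SE, edgeR adjusted p = 0.0309), and the other 7 markers were not called. The 10 markers of sinusoidal endothelium summed to 215 to 313 CPM in emodin livers and 223 to 329 CPM in vehicle livers, with Kdr alone called (lower). The 6 megakaryocyte and platelet markers stayed low, at 2.93 to 4.54 CPM in emodin livers and 3.36 to 4.63 CPM in vehicle livers. The 8 Kupffer cell and macrophage markers summed to 189 to 510 CPM in emodin livers and 125 to 554 CPM in vehicle livers, with none called. No marker of these 4 lists was at 0 in every liver, and their part in the results below was not tested.

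Across the 35 genes, 5 were higher in emodin livers (Fgb, Fgl1, F3, Serpina10 and Cpb2), 2 were lower (Klkb1 and Tfpi), and 28 were not called. The background over all 14308 entries was 13.2% called in either direction, 7.7% higher and 5.47% lower. The median log2 fold change of the 35 genes was 0.01, equal at this rounding to that of all entries tested (0.01), with 19 genes above zero and 16 below. The 8 emodin livers did not overlap with the 8 vehicle livers in 2 of the 35 genes, Cpb2 (all above) and Klkb1 (all below), where 0.937% of all entries had every emodin liver above, 1.03% had every one below and 1.97% were separated either way. Over all entries, 1102 were called higher and 782 lower; leaving out emodin liver 4 gave 709 higher and leaving out emodin liver 2 gave 521 lower. Quantile normalization with limma-trend gave 790 higher and 996 lower. In bulk liver, fewer cells of a type and less RNA per cell cannot be told apart.

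**Figure D1:**
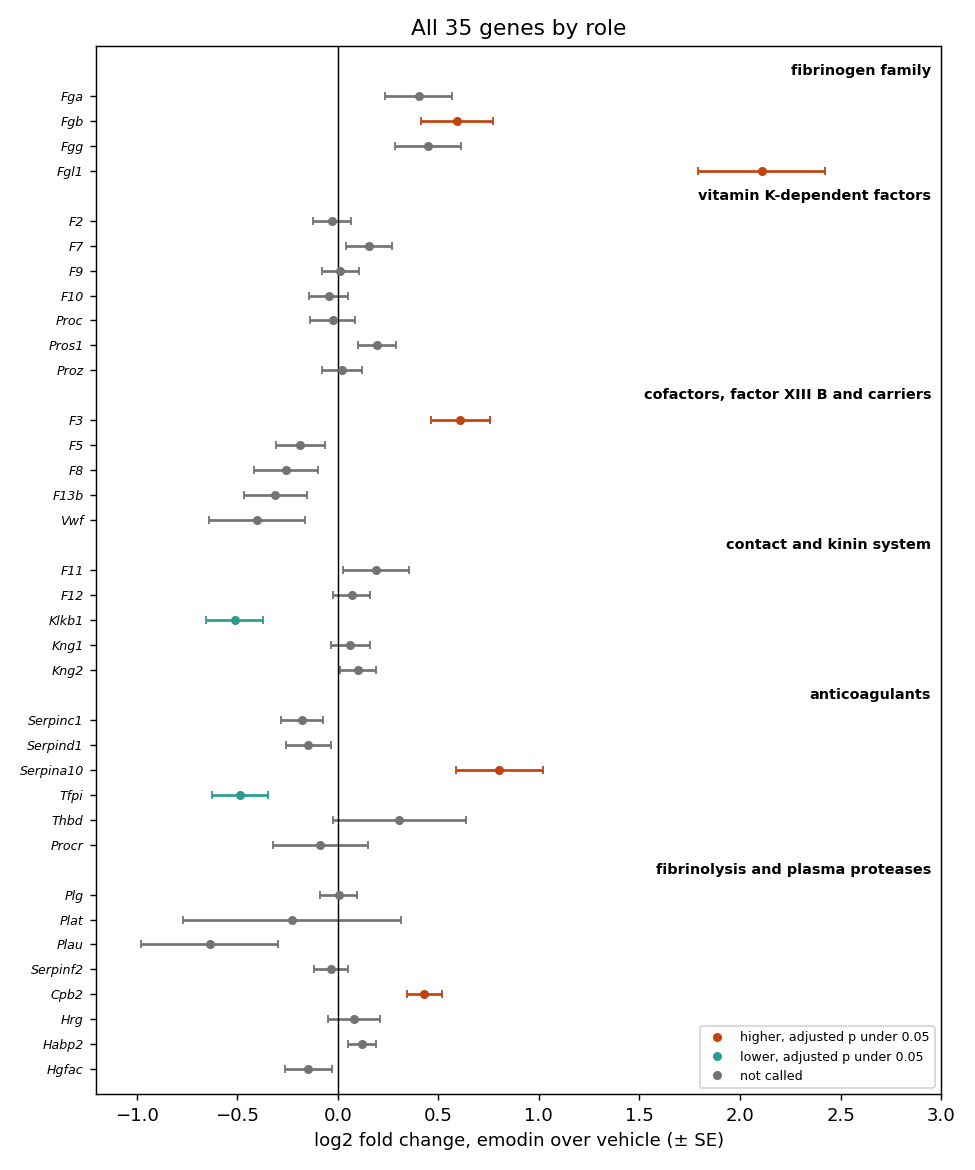
Log2 fold change (emodin over vehicle, horizontal axis) of the 35 genes ordered by role, with bars of 1 SE and colour for the 7 called genes. Most points lie near zero, Fgl1 stands farthest to the right at 2.11, and the 7 vitamin K-dependent genes lie between −0.04 and 0.20.

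The fibrinogen family had 2 called members of 4, against 13.2% called over all entries. Fga, Fgb and Fgg encode the 3 chains of fibrinogen and lie next to each other on chromosome 3 of mm10, Fgg at 83007724 to 83015049 and Fga at 83026076 to 83033627 on the plus strand, Fgb at 83040141 to 83049863 on the minus strand. The promoter windows of these genes, which moved alike from liver to liver, and of Klkb1 and Cpb2, the genes whose groups did not overlap, are printed for their sequence (RefSeq, GRCm38.p6, 5′ to 3′ on the gene's strand, 250 bases before and 50 after the start). Capitals mark matches on either strand to TTCNNNGAA (STAT), CTGGGA (the core of the IL-6 response element) or TTGCNNAA (C/EBP).
Fga (chr3:83025903-83026202, plus strand): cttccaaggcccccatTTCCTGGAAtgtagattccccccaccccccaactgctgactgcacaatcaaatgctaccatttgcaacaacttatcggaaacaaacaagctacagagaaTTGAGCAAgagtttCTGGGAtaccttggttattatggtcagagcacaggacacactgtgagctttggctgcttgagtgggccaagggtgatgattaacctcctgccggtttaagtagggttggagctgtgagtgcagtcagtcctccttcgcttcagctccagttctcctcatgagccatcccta
Fgb (chr3:83049814-83050113, minus strand): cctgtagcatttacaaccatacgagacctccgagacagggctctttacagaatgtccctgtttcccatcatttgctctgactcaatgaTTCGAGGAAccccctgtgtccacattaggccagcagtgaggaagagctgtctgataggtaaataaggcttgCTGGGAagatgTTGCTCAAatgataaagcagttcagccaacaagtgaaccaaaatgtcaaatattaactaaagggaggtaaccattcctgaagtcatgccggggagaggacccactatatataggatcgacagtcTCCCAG
Fgg (chr3:83007474-83007773, plus strand): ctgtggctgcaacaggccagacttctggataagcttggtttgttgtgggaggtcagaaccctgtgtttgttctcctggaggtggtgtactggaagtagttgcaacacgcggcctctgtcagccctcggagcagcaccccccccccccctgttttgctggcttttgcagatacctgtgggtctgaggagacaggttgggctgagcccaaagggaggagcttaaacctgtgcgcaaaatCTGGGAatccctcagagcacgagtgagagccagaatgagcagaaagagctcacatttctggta
Klkb1 (chr8:45294786-45295085, minus strand): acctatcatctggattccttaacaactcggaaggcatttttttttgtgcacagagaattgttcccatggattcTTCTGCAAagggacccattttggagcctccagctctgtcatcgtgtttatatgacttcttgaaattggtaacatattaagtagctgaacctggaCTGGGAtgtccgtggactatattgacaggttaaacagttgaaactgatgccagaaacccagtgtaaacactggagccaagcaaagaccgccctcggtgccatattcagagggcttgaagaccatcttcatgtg
Cpb2 (chr14:75242037-75242336, plus strand): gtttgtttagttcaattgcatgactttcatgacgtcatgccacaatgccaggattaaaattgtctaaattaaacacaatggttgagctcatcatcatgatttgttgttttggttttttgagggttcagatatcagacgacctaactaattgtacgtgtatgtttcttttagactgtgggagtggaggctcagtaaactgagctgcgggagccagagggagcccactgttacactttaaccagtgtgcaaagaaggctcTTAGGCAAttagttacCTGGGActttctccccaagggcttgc
No matches overlapped each other in these 5 windows. TTCNNNGAA was found in 8.3%, CTGGGA in 31.8% and TTGCNNAA in 10.8% of 32851 mouse promoter windows of this length. Of the 27 windows that matched 26 of the 35 genes, 5 held TTCNNNGAA (those of Fga, Fgb, F9, Hgfac and Pros1), 14 held CTGGGA and 11 held TTGCNNAA. Of the fibrinogen genes, Fga and Fgb held all 3 motifs, and Fgg held CTGGGA only. The HNF4 motif CAAAGTCCA was in 0 of these 27 windows, against 0.475% of all windows. A match is a description of the letters and not a site of binding.

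Fgb, the β chain, ranged from 4138 CPM over a median of 5085 CPM to 10695 CPM in emodin livers, against 3263, 4272 and 4570 CPM in vehicle livers. Emodin livers 4, 8 and 2 were the highest, and 7 of the 8 lay above every vehicle liver, with liver 1 inside the vehicle range. The means were 6120 ± 2205 CPM in emodin livers and 4052 ± 549 CPM in vehicle livers (SD, n = 8 each), 1.51-fold higher with emodin (log2 fold change 0.60 ± 0.18 SE, edgeR adjusted p = 0.0354). The call was lost without emodin liver 2 (0.57), 4 (0.43) or 8 (0.55), and without vehicle liver 2 (0.56), 5 (0.62), 6 (0.57), 7 (0.55) or 8 (0.61), values on the log2 scale. It was also lost with quantile normalization (0.50), sample quality weights (0.36) and a replicate block (0.54, edgeR adjusted p = 0.0708). The quality weights were 0.276 in emodin liver 8, 0.376 in liver 4 and 0.786 in liver 2. They were 0.455 to 1.44 in the other emodin livers and 0.714 to 1.94 in the vehicle livers.

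Fga, the α chain, had a lowest value of 3524, a median of 4737 and a highest value of 8846 CPM in emodin livers, against 3298, 4111 and 4808 CPM in vehicle livers. Fgg, the γ chain, had 3015, 3797 and 7430 CPM in emodin livers, against 2669, 3357 and 3679 CPM in vehicle livers. The same emodin livers 4, 2 and 8 were at the top for both chains, and the groups overlapped. Neither passed the test over all entries: the log2 fold change was 0.40 ± 0.17 SE for Fga (edgeR adjusted p = 0.119) and 0.45 ± 0.16 SE for Fgg (edgeR adjusted p = 0.0766). Fgg was called with DESeq2 (0.44, adjusted p = 0.0351) and without emodin liver 1 (0.51, edgeR adjusted p = 0.0381).

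**Figure D2:**
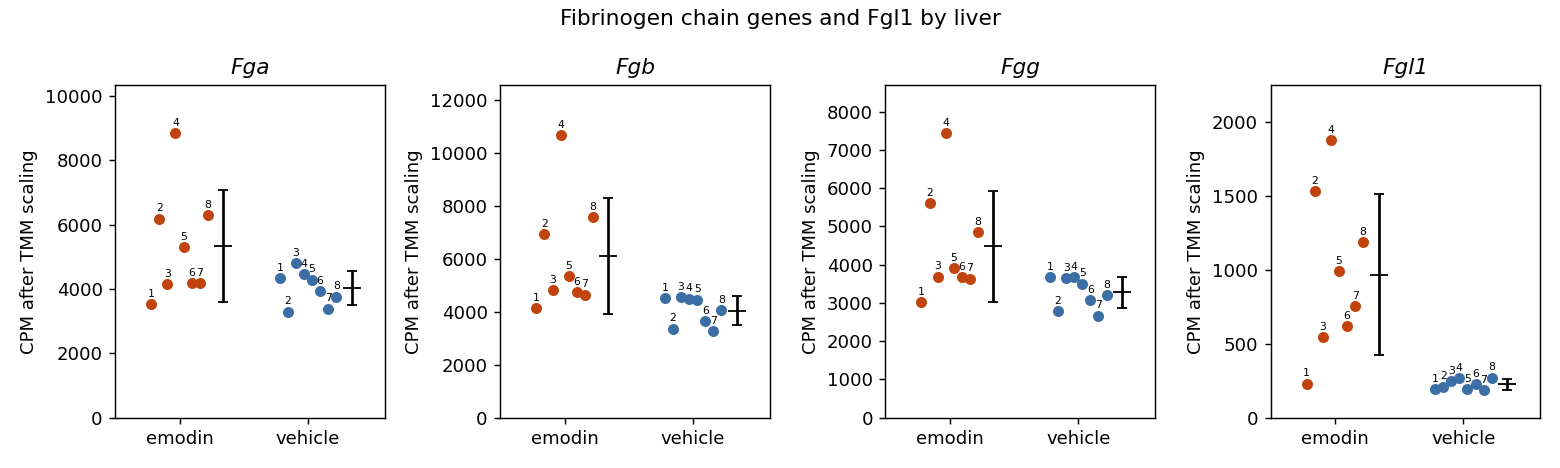
CPM after TMM scaling (vertical axis, from 0) of Fga, Fgb, Fgg and Fgl1 in each emodin liver and each vehicle liver, with the liver number over each point and bars for the mean and SD of 8 livers. Emodin livers 2, 4 and 8 lie highest in the 4 panels, and the vehicle livers lie close together.

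The 3 chains moved together from liver to liver within each group. On the log2 scale, Pearson's r between Fga and Fgb was 0.985 in the 8 emodin livers (rho = 0.905, permutation p = 0.000149, exact, 0.000446 after Benjamini-Hochberg adjustment over 6 correlations) and 0.970 without the 2 livers farthest from the median of Fga. In the vehicle livers it was 0.927 (rho = 0.929, exact permutation p = 0.00144, adjusted 0.00154), and 0.775 without 2 such livers, where it no longer passed. For Fga and Fgg, r was 0.971 in emodin livers (0.934 without 2 livers) and 0.944 in vehicle livers (0.846 without 2 livers, no longer past the threshold after adjustment). Fgb and Fgg gave 0.975 in emodin livers and 0.988 in vehicle livers. All 3 chains are measured in the same library, so a shared scaling enters each r. The β chain gained on the α chain: log2 of Fgb over Fga was 0.19 ± 0.08 in emodin livers and 0.01 ± 0.08 in vehicle livers (SD over 8 livers; two-sided permutation test, exact p = 0.00109, 0.00435 adjusted over 8 ratios), with emodin liver values above all vehicle values in 7 of 8 cases. Fgb was itself called, so its ratio over Fga is no separate support for that call. Fgg over Fga was −0.25 in emodin livers and −0.30 in vehicle livers, a difference of 0.05 that did not pass (exact permutation p = 0.265). Together, the 3 chains took 1.07% to 3.04% of the counts of an emodin liver and 0.911% to 1.29% of those of a vehicle liver. Per kilobase of exon, they were the 3 most abundant of the 35 genes in both groups, with 2139 (Fgg), 1772 (Fga) and 1606 (Fgb) CPM per kb in emodin livers, and 1567, 1341 and 1063 CPM per kb in vehicle livers.

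Fgl1, a hepatocyte protein that shares the fibrinogen-like domain but is no fibrinogen chain, had the largest log2 fold change of the 35 genes. It ranged over 231, 873 and 1877 CPM (lowest, median and highest) in emodin livers, against 186, 219 and 270 CPM in vehicle livers. Only emodin liver 1 lay in the vehicle range, and emodin livers 4 and 2 were the highest. The means were 967 ± 545 CPM in emodin livers and 225 ± 34.4 CPM in vehicle livers (SD, n = 8 each), 4.31-fold higher with emodin (log2 fold change 2.11 ± 0.31 SE, edgeR adjusted p = 0.00086). The gene lies on chromosome 8 of mm10 from 41191434 to 41215156 on the minus strand.

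The 7 vitamin K-dependent genes, whose products carry γ-carboxyglutamate and bind to phospholipid, had 0 calls, against 13.2% called over all entries. Prothrombin (F2), the precursor of thrombin, had 1177 ± 168 CPM in emodin livers and 1199 ± 63.3 CPM in vehicle livers (log2 fold change −0.03 ± 0.10 SE, edgeR adjusted p = 0.877). Factor IX (F9) had 227 ± 31.9 CPM in emodin livers and 225 ± 20.4 CPM in vehicle livers, and factor X (F10) had 332 ± 51.1 CPM in emodin livers and 343 ± 24.1 CPM in vehicle livers, with log2 fold changes of 0.01 and −0.04. Protein C (Proc), the protease that inactivates factors V and VIII, its cofactor protein S (Pros1) and protein Z (Proz), the partner of the Serpina10 product, had log2 fold changes of −0.02, 0.20 and 0.02. Log2 of Proc over Pros1 was 2.25 in emodin livers and 2.49 in vehicle livers, a difference that did not pass (exact permutation p = 0.104).

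Factor VII (F7), the partner of tissue factor, ranged over 42.6, 81.5 and 86.5 CPM in emodin livers, against 62.2, 66.6 and 75.4 CPM in vehicle livers. Emodin liver 8 lay below every vehicle liver and 6 other emodin livers lay above every one. The log2 fold change was 0.16 ± 0.11 SE (edgeR adjusted p = 0.383), and without emodin liver 8 it was 0.24 and passed the test (edgeR adjusted p = 0.0265). F7 and F10 are neighbours on chromosome 8 of mm10, at 13026034 to 13035809 and 13037308 to 13056676. Log2 of F7 over F10 was −2.15 ± 0.15 in emodin livers and −2.33 ± 0.12 in vehicle livers (SD, n = 8 each; exact permutation p = 0.0174, adjusted 0.0348). That difference missed the adjusted threshold without emodin liver 1 (0.18), 2 (0.17), 3 (0.18), 5 (0.15) or 7 (0.18), and without vehicle liver 1 (0.17), 4 (0.17), 6 (0.18) or 8 (0.16).

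Among the cofactors and carriers, 1 of 5 genes was called, against 13.2% of all entries. Tissue factor (F3), the membrane receptor that starts clotting, was low in whole liver at 1.91 CPM per kb in emodin livers and 1.25 CPM per kb in vehicle livers. It ranged over 3.74, 4.73 and 6.06 CPM in emodin livers, against 2.28, 3.17 and 4.53 CPM in vehicle livers. The groups overlapped through vehicle liver 1, the highest of its group, and 4 emodin livers lay above every vehicle liver. The means were 4.82 ± 0.742 CPM in emodin livers and 3.16 ± 0.764 CPM in vehicle livers (SD, n = 8 each), 1.53-fold higher with emodin (log2 fold change 0.61 ± 0.15 SE, edgeR adjusted p = 0.0142). Factor V (F5) and factor VIII (F8), the cofactors of the later proteases, had log2 fold changes of −0.19 and −0.26, and the carrier subunit of factor XIII (F13b) and von Willebrand factor (Vwf), the carrier of factor VIII, had −0.31 and −0.40. None of these 4 passed, with edgeR adjusted p between 0.193 and 0.325. F8 and Vwf are genes of endothelium in liver. Of the 10 endothelial markers above, 7 had a log2 fold change below zero and 3 above, and 1 was called, lower.

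Among the contact and kinin genes, 1 of 5 was called, against 13.2% of all entries. Klkb1, which encodes plasma prekallikrein, ranged over 162, 317 and 388 CPM in emodin livers, against 398, 412 and 454 CPM in vehicle livers. The groups did not overlap: the highest emodin liver (3) lay below the lowest vehicle liver (5), and emodin livers 8 and 4 were the lowest. The means were 294 ± 75.4 CPM in emodin livers and 419 ± 21.1 CPM in vehicle livers (SD, n = 8 each), and the level with emodin was 0.701 times that with vehicle (log2 fold change −0.51 ± 0.14 SE, edgeR adjusted p = 0.0246). Klkb1 lies on chromosome 8 of mm10 from 45266689 to 45294859 on the minus strand. Its exons share 2267 bases with those of Gm45753 on the same strand, which had 0 to 148 counts per liver, so reads of the pair could be split either way.

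F11, the factor XI gene, is the neighbour of Klkb1 and arose with it by duplication. It had 83.9 ± 25.4 CPM in emodin livers and 73.5 ± 11.9 CPM in vehicle livers (log2 fold change 0.19 ± 0.16 SE, edgeR adjusted p = 0.458). Log2 of Klkb1 over F11 was 1.82 ± 0.69 in emodin livers and 2.53 ± 0.23 in vehicle livers (SD, n = 8 each; exact permutation p = 0.00606, adjusted 0.0162), with 5 emodin livers below every vehicle liver. Emodin liver 8 was the lowest, and without it the difference was −0.50 in place of −0.71. Klkb1 was itself called, so this ratio is no separate support for its call. Factor XII (F12), which activates prekallikrein, had 301 ± 44.5 CPM in emodin livers and 287 ± 9.94 CPM in vehicle livers, with 6 emodin livers above and liver 8 below every vehicle liver (edgeR adjusted p = 0.645). The kininogen genes Kng1 and Kng2, sources of bradykinin, had log2 fold changes of 0.06 and 0.10, neither called, and log2 of Kng2 over Kng1 was −2.88 in emodin livers and −2.92 in vehicle livers (exact permutation p = 0.394). Kng1 and Kng2 are close paralogs, so reads could be shared between them.

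**Figure D3:**
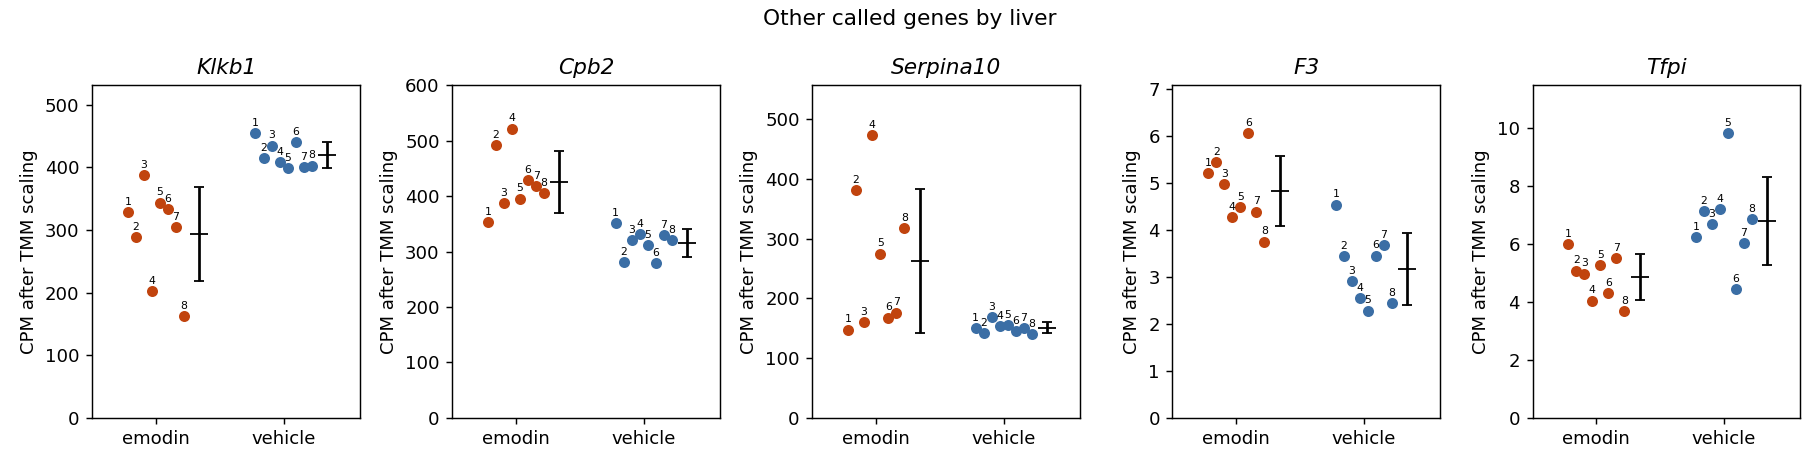
CPM after TMM scaling (vertical axes, from 0) of Klkb1, Cpb2, Serpina10, F3 and Tfpi in each of 8 emodin and 8 vehicle livers, numbered, with the mean and SD. All 8 emodin livers lie above the vehicle livers for Cpb2 and below them for Klkb1, and the groups overlap for the other 3 genes.

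Of the 6 anticoagulant genes outside the vitamin K-dependent group, 1 was higher and 1 lower, against 7.7% higher and 5.47% lower over all entries. Serpina10, the protein Z-dependent inhibitor of factor Xa, ranged over 147, 225 and 473 CPM in emodin livers, against 140, 150 and 169 CPM in vehicle livers. Emodin livers 4, 2, 8, 5 and 7 lay above every vehicle liver, and livers 1, 3 and 6 inside the vehicle range. The means were 262 ± 121 CPM in emodin livers and 150 ± 9.12 CPM in vehicle livers (SD, n = 8 each), 1.75-fold higher with emodin (log2 fold change 0.80 ± 0.22 SE, edgeR adjusted p = 0.0232). The call was lost with quantile normalization (0.73), sample quality weights (0.41) and a replicate block (0.68, edgeR adjusted p = 0.0741).

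Tfpi, tissue factor pathway inhibitor, ranged over 3.69, 5.03 and 6.00 CPM in emodin livers, against 4.44, 6.77 and 9.84 CPM in vehicle livers. Vehicle liver 5 was the highest, and vehicle liver 6, the lowest of its group, lay among the emodin livers. The means were 4.86 ± 0.784 CPM in emodin livers and 6.80 ± 1.51 CPM in vehicle livers (SD, n = 8 each; log2 fold change −0.48 ± 0.14 SE, edgeR adjusted p = 0.0303). The call was lost without emodin liver 4 (−0.45), 6 (−0.45) or 8 (−0.44), without vehicle liver 3 (−0.48), 4 (−0.47), 5 (−0.39) or 8 (−0.47), with sample quality weights (−0.43) and with a replicate block (−0.47, edgeR adjusted p = 0.0535), which leaves Klkb1 as the 1 gene called lower. Like F3, the gene was low in whole liver, at 0.89 CPM per kb in emodin livers and 1.25 CPM per kb in vehicle livers. Log2 of F3 over Tfpi, the initiator over its inhibitor, was −0.01 ± 0.25 in emodin livers and −1.10 ± 0.58 in vehicle livers (SD, n = 8 each), and all 8 emodin livers lay above every vehicle liver. The difference of 1.09 had an exact permutation p of 0.000155, the smallest these permutations can give (0.00124 adjusted over 8 ratios). The pair was formed from genes that were each called, so the ratio is no separate support for either.

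**Figure D4:**
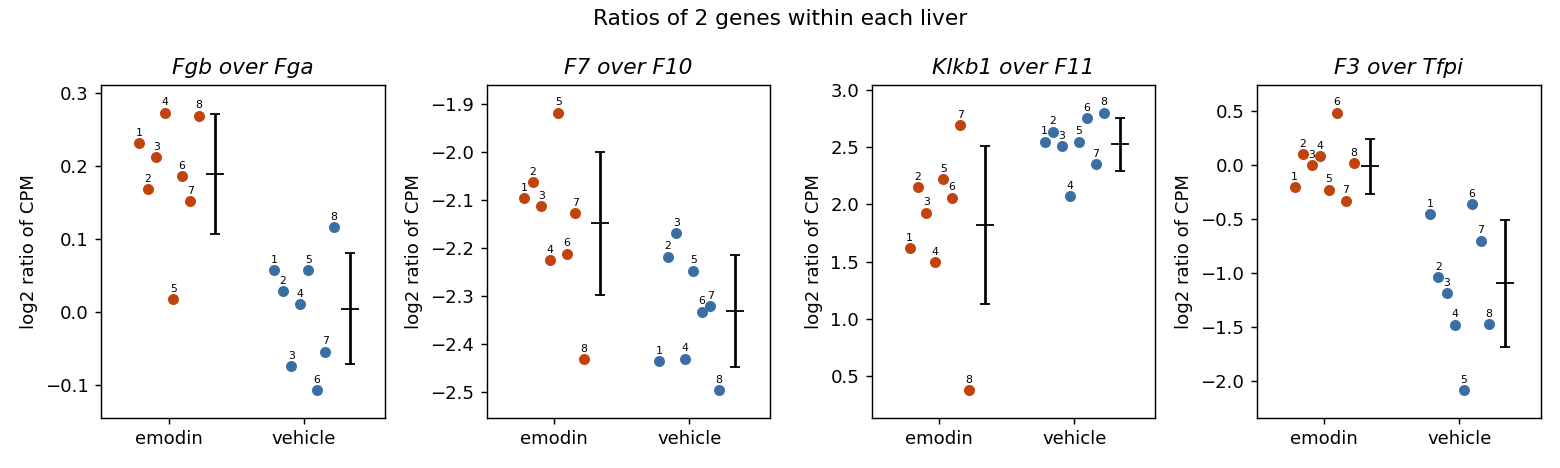
Log2 ratios of gene pairs within each liver (vertical axes; Fgb over Fga, F7 over F10, Klkb1 over F11, F3 over Tfpi), for 8 emodin and 8 vehicle livers with their mean and SD. For F3 over Tfpi, all 8 emodin livers lie above the vehicle livers, and for Klkb1 over F11, 5 emodin livers lie below them.

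Antithrombin (Serpinc1), the main inhibitor of thrombin, had 1484 ± 231 CPM in emodin livers and 1679 ± 145 CPM in vehicle livers (log2 fold change −0.18 ± 0.10 SE, edgeR adjusted p = 0.263). It was called lower with quantile normalization (−0.28, limma adjusted p = 0.0313). Heparin cofactor II (Serpind1) had a log2 fold change of −0.15, and the endothelial receptors thrombomodulin (Thbd) and the protein C receptor (Procr) had 0.31 and −0.09, none called.

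Of the 8 genes of fibrinolysis and related plasma proteases, Cpb2 alone was called, where 13.2% of all entries were called. It encodes the thrombin-activatable fibrinolysis inhibitor, a carboxypeptidase that trims plasmin's binding sites from fibrin. It ranged over 353, 412 and 522 CPM in emodin livers, against 279, 321 and 351 CPM in vehicle livers. The lowest emodin liver (1) stood just above the highest vehicle liver (1), and emodin livers 4 and 2 were the highest. The means were 425 ± 55.8 CPM in emodin livers and 316 ± 24.8 CPM in vehicle livers (SD, n = 8 each), 1.35-fold higher with emodin (log2 fold change 0.43 ± 0.09 SE, edgeR adjusted p = 0.00558). Cpb2 lies on chromosome 14 of mm10 from 75242287 to 75283555 on the plus strand.

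Plasminogen (Plg), the precursor of plasmin, had 2042 ± 234 CPM in emodin livers and 2033 ± 157 CPM in vehicle livers (log2 fold change 0.01 ± 0.09 SE, edgeR adjusted p = 0.97). Its inhibitor α2-antiplasmin (Serpinf2) had 572 ± 59.8 CPM in emodin livers and 585 ± 48.5 CPM in vehicle livers, and log2 of Serpinf2 over Plg differed by −0.04 (exact permutation p = 0.686). The plasminogen activators had low counts in both groups. Plat (tissue type) had 0.514 ± 0.422 CPM in emodin livers and 0.596 ± 0.536 CPM in vehicle livers, with an edgeR adjusted p of 0.817. Plau (urokinase) had 0.829 ± 0.346 CPM in emodin livers and 1.29 ± 0.727 CPM in vehicle livers, with an edgeR adjusted p of 0.218. Histidine-rich glycoprotein (Hrg), the factor VII-activating protease (Habp2) and the activator of hepatocyte growth factor (Hgfac) had log2 fold changes of 0.08, 0.12 and −0.15, none called.

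The emodin livers differed more among themselves than the vehicle livers did. The coefficient of variation was larger with emodin in 29 of the 35 genes (82.9%), against 69.8% of all entries tested, and its median over the 35 genes was 18.9% in emodin livers and 9.81% in vehicle livers, against 21.3% and 14.9% over all entries in emodin and vehicle livers. Emodin liver 8 lay below every vehicle liver in 17 of the 35 genes and above every one in 7. Those 17 included prothrombin, factors V, VII, IX, X and XII, antithrombin, plasminogen and Kng1. Over all entries, 26% lay below and 26.8% above the vehicle range in that liver. Emodin liver 4 had 11 genes below and 10 above, where 25.7% of all entries lay below and 26.4% above. The other 6 emodin livers had 1 to 6 genes below and 7 to 13 above, against 13.4% to 23.9% of all entries below and 13.4% to 24.5% above.

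**Figure D5:**
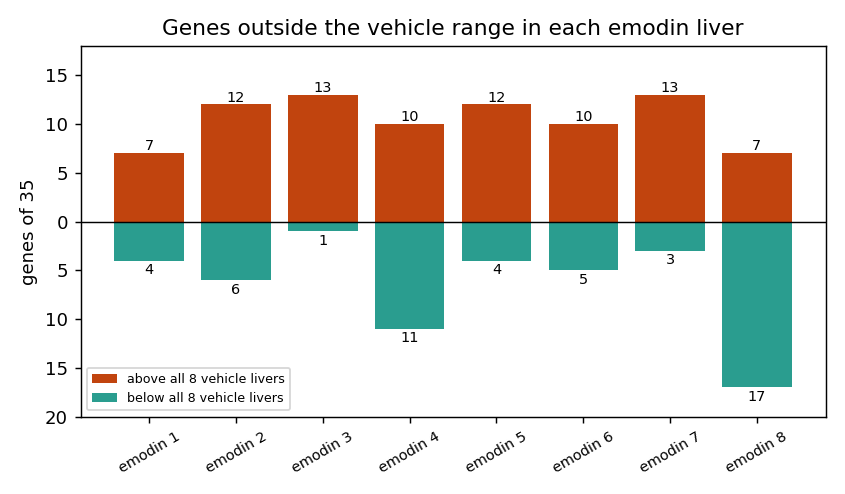
Number of the 35 genes above and below the range of the 8 vehicle livers, for each emodin liver. Liver 8 has 17 genes below the range, where 26% of all entries lie below, liver 4 has 11 (25.7% of all entries), and the others have 1 to 6.

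A further 66 genes of the pathway and its regulators were listed by their known roles, with earlier results of these data known. Of the 66, 56 had enough counts to be tested. Of these 56, 9 were higher, 2 lower and 45 not called, and their median log2 fold change was 0.11, against 0.01 over all entries and 13.2% called. The inhibitors and clotting genes outside the 35 had 1 of 12 higher and 1 lower: Tgm2, a transglutaminase, had 123 ± 75.8 CPM in emodin livers and 62.8 ± 7.87 CPM in vehicle livers (0.96 ± 0.30 SE, edgeR adjusted p = 0.0457), and Tfpi2, a relative of Tfpi, had 52.5 ± 6.36 CPM in emodin livers and 65.7 ± 4.71 CPM in vehicle livers (−0.33 ± 0.07 SE, edgeR adjusted p = 0.00928). The call of Tgm2 was lost when any of 12 of the 16 livers was left out (emodin 2, 4, 5 and 8 and vehicle 1 to 8), where the lowest value was 0.73, without emodin liver 5. It was also lost with sample quality weights (0.39), a replicate block (0.74, edgeR adjusted p = 0.0983), quantile normalization (0.77), no filter on low counts (0.97) and total-count scaling (1.03).

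Serping1, the C1 inhibitor, which restrains factor XIIa and plasma kallikrein, was the only call among the 8 other kinin genes tested. Over all entries, 13.2% were called. Serping1 had 771 ± 126 CPM in emodin livers and 534 ± 28 CPM in vehicle livers (SD, n = 8 each), and all 8 emodin livers lay above every vehicle liver (log2 fold change 0.53 ± 0.10 SE, edgeR adjusted p = 0.00289). Of 8 genes of the vitamin K cycle and carboxylation, 2 were higher and 1 lower, against 7.7% higher and 5.47% lower over all entries. Ggcx, the carboxylase of the vitamin K-dependent factors, had 34.6 ± 2.73 CPM in emodin livers and 40.4 ± 3.14 CPM in vehicle livers (−0.23 ± 0.06 SE, edgeR adjusted p = 0.0285), a call lost without vehicle liver 3 (−0.20), 4 (−0.21) or 5 (−0.22), with total-count scaling (−0.19), with no filter (−0.22) and with a replicate block (−0.23, edgeR adjusted p = 0.0519). Aifm2, a reductase of vitamin K, had 30.9 ± 2.89 CPM in emodin livers and 24.1 ± 1.94 CPM in vehicle livers (0.36 ± 0.07 SE, edgeR adjusted p = 0.00399). Vkorc1l1, a paralog of the vitamin K epoxide reductase, had 61.5 ± 2.94 CPM in emodin livers and 54.0 ± 4.05 CPM in vehicle livers (0.19 ± 0.06 SE, edgeR adjusted p = 0.0373), a call lost without emodin liver 1 (0.18) or vehicle liver 1 (0.19), 2 (0.16), 4 (0.18), 5 (0.19) or 6 (0.18), with no filter (0.19) and with a replicate block (0.19, edgeR adjusted p = 0.0536).

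Of 12 transcription factor genes known from these promoters, 5 were higher and 0 lower, against 7.7% higher and 5.47% lower over all entries. Their median log2 fold change was 0.46, against 0.01 over all entries, and the list was chosen with earlier results of these data known. Stat3, the mediator of IL-6 signals, had 121 ± 27.1 CPM in emodin livers and 79.9 ± 21.8 CPM in vehicle livers (0.60 ± 0.16 SE, edgeR adjusted p = 0.0216), a call lost with sample quality weights (0.46, limma adjusted p = 0.0739). Cebpd, an acute-phase factor, had 10.2 ± 3.78 CPM in emodin livers and 6.24 ± 1.25 CPM in vehicle livers (0.70 ± 0.19 SE, edgeR adjusted p = 0.0245). Nr1i2, the xenobiotic receptor PXR, had 109 ± 18.7 CPM in emodin livers and 76.9 ± 11.4 CPM in vehicle livers (0.50 ± 0.11 SE, edgeR adjusted p = 0.00827). Klf6 had 59.9 ± 86.8 CPM in emodin livers and 9.94 ± 2.78 CPM in vehicle livers, with 262 CPM in emodin liver 5 (2.59 ± 0.75 SE, edgeR adjusted p = 0.0343). It lost its call without emodin liver 2, 4, 5 or 8 or vehicle liver 1, 3, 4, 5, 6, 7 or 8, and was 1.65 without emodin liver 5. It also lost its call with sample quality weights (0.52), a replicate block (1.32, edgeR adjusted p = 0.256), quantile normalization (1.35) and no filter on low counts (2.59).

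The 8 fibrinolysis regulators, 6 genes of factor V and VIII export and clearance and 2 genes of the thrombin receptor family had 0 calls with edgeR. Over all entries, 13.2% were called. An unadjusted edgeR p under 0.05 was found for 1, 0 and 2 genes of these lists, against 4249 of all 14308 entries. Of the 2 receptor genes, 1 had a log2 fold change above zero and 1 below.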

How the data were processed

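RNA sequencing covered 8 liver libraries of the emodin group and 8 of the vehicle group. The values deposited are estimated counts per gene, as whole numbers (0 were not whole). FPKM is in its name, but whole values and differing totals are those of unscaled counts. The tools, per the submitters' processing notes, were Cufflinks 2.2.1, HTSeq 0.6.1, HISAT2, cutadapt 1.9.1 and SAMtools 0.1.19, with the mm10 build; their roles, the annotation, and whether counting used strand are not given in the sources used here. In every liver the value 2 was commoner (632 to 751 entries) than the value 1 (161 to 207), so a value of 1 need not be 1 read. 0 numeric columns were left unused, and no libraries were identical. The range of depths is given above; counting error is part of the spread between livers, which every test used.

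Entries were tested in R 4.3.3 with edgeR 4.0.16: filterByExpr defaults, TMM scaling and the quasi-likelihood F test in its robust form, with a group term alone. Adjustment was by Benjamini-Hochberg over 14308 entries, with a threshold of 0.05, and the SE was obtained from the log2 fold change and F (its size over the root of F). CPM means are given with the SD of 8 livers. Ratios and correlations used log2 CPM with a prior count of 2 and exact two-sided permutation tests (12870 assignments for a ratio). By the naming rule, all 35 genes are named, with fuller values for the called ones and members of the same role beside them, and the other pathway genes are named where called; 1 called gene of those lists and 1 promoter motif are not reported here. The members and lists were chosen with earlier results of these data known. The 10 of 66 listed pathway genes with too few counts were not tested (F13a1, Serpina5, A2m, Serpinb2, Bdkrb1, Bdkrb2, Klk1, Xpnpep2, F2rl2 and F2rl3).

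Coordinates, exon overlaps and lengths come from GENCODE M21 (35 of 35 IDs found). 6 genes share exon bases with another gene: Klkb1, Serpinc1, Plg, Habp2, F5 and Fgg. RefSeq promoter windows of 300 bases were matched to 26 of the 35 genes. The alternatives were DESeq2 1.42.0, other scalings and filters, limma 3.58.1 with quantile normalization or sample quality weights, loci with an Ensembl ID only, a replicate block, other prior counts, and leaving out each liver. Only the main edgeR fit was tested on simulated counts.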

Additional observations from a re-analysis of the deposited data

Results flagged for a closer look

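Within groups of 8 livers, a gene was looked at again where its most extreme liver stood apart from the next by more than Dixon's 95% critical value for its share of the group's range. Chance gives about 1 in 20 groups, and here 6 of 90 groups were found, 3 of them among the 70 groups of the 35 genes. Thrombomodulin (Thbd) had 15.3 CPM in emodin liver 5, with 7.90 CPM in the next emodin liver. In vehicle liver 2, Plat had 1.85 CPM, with 0.595 CPM in the next vehicle liver, and Procr had 0.954 CPM, with 0.656 CPM in the next. Emodin liver 5 also stood apart for 2 transcription factor genes, with 262 CPM of Klf6 (88.8 CPM in the next) and 18.1 CPM of Cebpd (11.5 CPM in the next). Tfpi2 had 67.4 CPM in emodin liver 1, with 52.5 CPM in the next emodin liver.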

How the results depend on the processing

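Of the 7 called genes, F3, Fgl1, Klkb1 and Cpb2 kept their call in all 10 other settings and all 16 fits that left out a liver, and all 7 kept their sign. The number of the 35 genes called higher was 3 with quantile normalization, 3 with sample quality weights and 3 with the replicate block (5 as reported). The number called lower was 3 with quantile normalization, 1 with quality weights and 1 with the block (2 as reported). Leaving out 1 liver gave 4 to 6 higher and 1 to 2 lower. DESeq2 gave 6 higher and 2 lower. Over all entries, the block gave 628 higher and 635 lower, and leaving out a liver gave 709 to 1333 higher and 521 to 903 lower. Among the other pathway genes, DESeq2 called 15 higher, the fits with no filter and with the block each called 1 lower and 6 higher, and leaving out a liver gave 6 to 13 higher and 1 to 3 lower. The labels number the livers 1 to 8 in both groups and do not say whether the same number marks a pair. The deviations of same-numbered livers had correlations of −0.149 to 0.245, which cannot decide whether the livers were paired. The difference between groups (emodin minus vehicle) in log2 of F7 over F10 ranged from 0.15 to 0.22 when a liver was left out. For Serpinf2 over Plg, that difference ranged from −0.0798 to 0.0186. The vehicle correlations of Fga with Fgb and with Fgg were 0.775 and 0.846 without 2 livers. Sign changes were seen only in uncalled genes, on the log2 scale. Plg was −5.7e-05 with DESeq2, −5.7e-05 with RLE size factors, −0.065 with quantile normalization and −0.0038 without loci that have no Ensembl ID. Hrg was −0.035 with quantile normalization. Quality weights gave F2 0.042, F10 0.031, Proc 0.082 and Thbd −0.18. Leaving out a liver gave Proz −0.014 to 0.080, Plg −0.018 to 0.057, F2 −0.049 to 0.029, Proc −0.061 to 0.049, F9 −0.028 to 0.057, Procr −0.23 to 0.038, Serpinf2 −0.064 to 0.0067, F10 −0.065 to 0.019 and Plat −0.56 to 0.29. The cause of these changes was not tested. The largest shift of the median of all entries was 0.0304, with total-count scaling.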
